A study of Homo sapiens with 12 samples.

Results

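The genes described here are 9 components of HLA class I antigen presentation: the heavy chains HLA-B, HLA-C and HLA-E, the light chain B2M, the peptide transporter subunits TAP1 and TAP2, the transporter-bound chaperone TAPBP, and the proteasome subunits PSMB8 and PSMB9. They were chosen by name, as 9 of the 60649 genes counted in each library. RNA was measured in spheroids of SBC3, an established human small cell lung cancer line. Polyadenylated RNA was sequenced from 12 libraries in 4 groups of 3: control, teriflunomide, lurbinectedin, and both drugs together (combination). All groups share the same line and spheroid culture, and the labels give no dose, exposure time or culture of origin. Teriflunomide inhibits dihydroorotate dehydrogenase, an enzyme of pyrimidine synthesis. Lurbinectedin binds DNA and blocks transcription by RNA polymerase II. The labels name a single cancer line and no added immune cells.

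Class I molecules display short peptides from inside the cell to CD8+ T cells. The proteasome cuts proteins into peptides, and in cells exposed to interferon its catalytic subunits are replaced by PSMB8, PSMB9 and PSMB10. The TAP1-TAP2 transporter moves peptides into the endoplasmic reticulum, where TAPBP (tapasin) holds the transporter next to an empty heavy chain bound to B2M until a peptide is loaded. Small cell lung cancer is known for low levels of this machinery.

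Of the 9 genes, 8 lie in the major histocompatibility complex on chromosome 6 and B2M lies on chromosome 15. Positions below are those of the deposited tables, in hg38. HLA-E (ENSG00000204592.9) occupies chr6:30489509-30494194 on the plus strand. HLA-C (ENSG00000204525.17) occupies chr6:31268749-31272130 and HLA-B (ENSG00000234745.13) chr6:31353872-31357188, both on the minus strand. TAP2 (ENSG00000204267.16) occupies chr6:32821833-32838770, PSMB8 (ENSG00000204264.12) chr6:32840717-32844679 and TAP1 (ENSG00000168394.12) chr6:32845209-32853816, all on the minus strand. PSMB9 (ENSG00000240065.8) occupies chr6:32844136-32859851 on the plus strand, so that it runs across TAP1 in the opposite direction. TAPBP (ENSG00000231925.12) occupies chr6:33299694-33314387 on the minus strand, and B2M (ENSG00000166710.21) occupies chr15:44711487-44718851 on the plus strand.

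The promoters of 4 of these genes are printed because the genes moved by different amounts although they are known to share regulators such as NLRC5, IRF1 and NF-kB, and because PSMB9, which starts close to TAP1, was not called. RefSeq (GRCh38.p14) gave 300-base windows, from 250 bases before to 50 after each start, for 8 of the 9 genes. Each line gives the part of such a window before the RefSeq start that lies outside the protein-coding genes' exons in the deposited tables and outside the UTRs of GENCODE 29, read 5′ to 3′ on the strand of the gene. The PSMB9 stretch lies between exons inside the deposited span of PSMB9, and the HLA-B stretch lies in ENSG00000271581, a pseudogene on the opposite strand. Capitals mark matches, on either strand, to an interferon-stimulated response element (ISRE: GAAA, any 2 bases, then GAAA), a gamma-activated site (GAS, TTCNNNGAA), the NF-kB consensus, a cAMP response element half-site (TGACG) or a CCAAT box (CCAAT).
HLA-B, chr6:31357189-31357429, minus strand: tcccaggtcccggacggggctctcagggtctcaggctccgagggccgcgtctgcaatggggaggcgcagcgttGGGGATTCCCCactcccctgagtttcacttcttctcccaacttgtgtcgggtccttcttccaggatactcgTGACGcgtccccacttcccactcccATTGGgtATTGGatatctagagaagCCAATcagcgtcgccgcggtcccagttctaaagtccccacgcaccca
HLA-C, chr6:31272131-31272342, minus strand: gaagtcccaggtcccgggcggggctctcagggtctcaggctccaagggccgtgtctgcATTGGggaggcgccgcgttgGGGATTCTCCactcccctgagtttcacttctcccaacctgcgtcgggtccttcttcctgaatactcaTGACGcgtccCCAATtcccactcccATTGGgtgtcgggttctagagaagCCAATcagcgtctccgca
B2M, chr15:44711324-44711486, plus strand: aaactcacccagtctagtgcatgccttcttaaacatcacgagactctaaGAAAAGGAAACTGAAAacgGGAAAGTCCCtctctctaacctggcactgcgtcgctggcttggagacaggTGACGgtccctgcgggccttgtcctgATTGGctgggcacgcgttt
PSMB9, chr6:32853979-32854147, plus strand: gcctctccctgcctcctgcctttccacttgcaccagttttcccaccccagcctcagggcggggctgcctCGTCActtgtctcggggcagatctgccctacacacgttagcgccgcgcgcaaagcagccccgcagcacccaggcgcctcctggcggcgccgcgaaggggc

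The HLA-B and HLA-C stretches hold matches of the same 3 kinds: the NF-kB consensus, the TGACG half-site and CCAAT boxes. The NF-kB matches of HLA-B overlap, as do the ISRE matches of B2M. The PSMB9 stretch holds 1 half-site, and its whole window also holds 1 CCAAT box. The TAP1 window at its upstream RefSeq start holds 2 ISRE matches, 2 matches to the NF-kB consensus and 1 CCAAT box; it is not printed because it lies in TAP1 exons of the deposited tables or GENCODE 29. The RefSeq starts of TAP1 and PSMB9 are 488 bases apart and point away from each other. Over the whole 300-base windows, 5 of the 8 genes held an ISRE match, 5 the NF-kB consensus, 2 a GAS match, 6 the half-site and 5 a CCAAT box. Of all 35116 windows in the table, 3.57% held an ISRE match, 5.91% the NF-kB consensus, 7.66% a GAS match, 24.6% the half-site and 34.6% a CCAAT box. Of the genes not printed, TAP2 had a stretch with 0 matches and a whole window with 1 ISRE match and 1 half-site. TAP2 rose 2.46-fold with lurbinectedin. The TAPBP window held 2 ISRE matches and 1 NF-kB match, and TAPBP rose 1.34-fold. Whether matches go with the size of the changes was not tested. A match is a run of letters and was not tested as a binding site.

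Total counts per library ranged from 23206414 to 33222162. Mitochondrially encoded genes took 6.26% to 7.17% of the counts in the control libraries and 13.1% to 17.0% in the lurbinectedin libraries and in combination replicates 1 and 3. Teriflunomide replicate 3 (22.6%) and combination replicate 2 (24.9%) stood apart from the other libraries of their groups, at 8.42% and 8.43% for teriflunomide. Results that rest on either library are given with and without it. Of 11 small cell lung cancer markers, INSM1, UCHL1 and GRP had no count in any library and NCAM1 had at most 2, whereas YAP1 stood at 246.1 ± 12 CPM in control (SD, n = 3) and SYP at 16.8 ± 0.77 CPM. Markers of other cell types are given after the genes' values with lurbinectedin.

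With lurbinectedin, 7 of the 8 genes that could be tested rose and none fell. TAP1, HLA-E and HLA-B rose most, by 6.68-fold, 6.0-fold and 5.2-fold, HLA-C rose 3.72-fold, and TAP2 and B2M rose 2.46-fold and 2.39-fold. TAPBP rose 1.34-fold. PSMB9 stayed near 1 CPM, and PSMB8 had too few counts to be tested. Levels are given as CPM, counts relative to the effective library size after TMM scaling. A call means an edgeR quasi-likelihood p that stayed under 0.05 after Benjamini-Hochberg adjustment over 16683 genes. Lurbinectedin changed most of the transcriptome, with 36% of all tested genes called higher and 35.7% called lower, and the median log2 fold change was 0.05 over all tested genes and 1.6 over the 8. CPM are relative to the other RNA of a library. In bulk spheroids, a change in the share of some cells and a change in RNA per cell cannot be told apart.

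**Figure D1:**
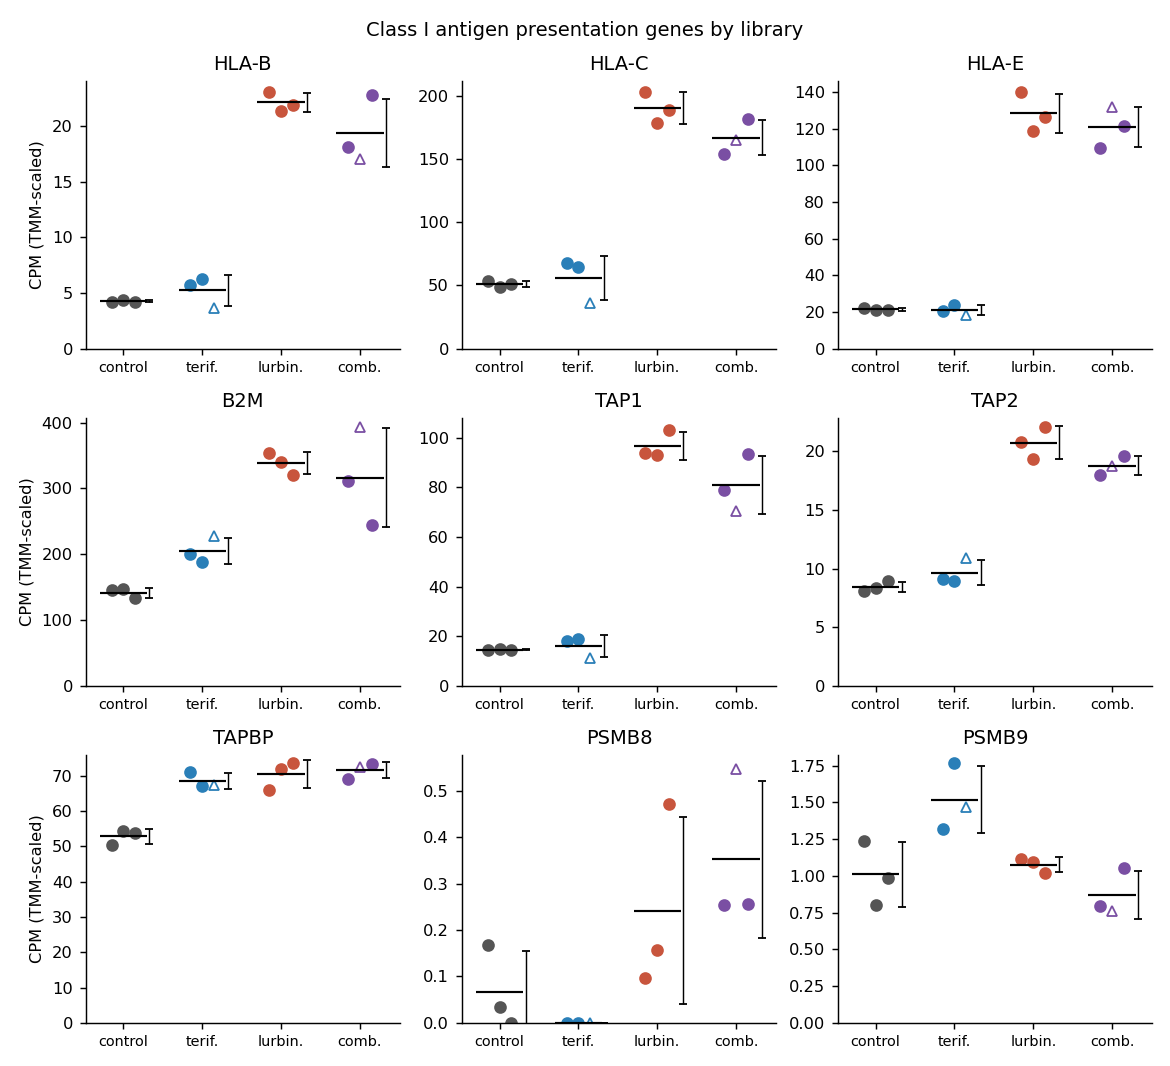
CPM of the 9 genes in each of the 12 libraries by group (control, teriflunomide, lurbinectedin, combination), on linear axes from 0 that differ between panels. Points are libraries, lines are group means and bars are ± SD; open triangles mark teriflunomide replicate 3 and combination replicate 2. For HLA-B, HLA-C, HLA-E, B2M, TAP1 and TAP2, every library given lurbinectedin, alone or in combination, lies above every library without it. The share of all tested genes that do so was not computed. For single pairs of groups, 42.4% of all tested genes lay wholly above control with lurbinectedin and 38.7% with the combination. With the combination, 35.1% lay wholly above teriflunomide.

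The heavy chains carry the peptide. HLA-B stood at 4.19, 4.38 and 4.18 CPM in the control libraries, and at 5.72, 6.29 and 3.65 with teriflunomide. Lurbinectedin alone gave 23.1, 21.4 and 21.9 CPM, and the combination gave 18.1, 17.1 and 22.8. All 6 libraries given lurbinectedin were above the 6 others, and the low teriflunomide library was replicate 3. The log2 fold change with lurbinectedin was 2.38 ± 0.18 (SE, n = 3 per group; edgeR adjusted p = 5.02e-08). HLA-B also shared 18.0% of its exon bases with a gene on the opposite strand, ENSG00000271581, that had 0 to 4 counts per library.

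HLA-C was at 53.4, 48.9 and 51.2 CPM in control, and at 67.5, 65.0 and 36.2 with teriflunomide. Its levels were 203.7, 178.5 and 189.3 CPM in the lurbinectedin libraries and 154.1, 165.4 and 182.0 in the combination libraries. Its teriflunomide libraries lay on both sides of the control libraries. With lurbinectedin HLA-C rose by 1.90 ± 0.18 on the log2 scale (edgeR adjusted p = 4.76e-07). Reads of HLA-B and HLA-C can fit both genes and the alleles of a line may differ from the reference, so their absolute levels are uncertain.

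HLA-E, the heavy chain that NK cells read through CD94-NKG2 receptors, was at 22.2, 20.8 and 21.2 CPM in control and at 20.3, 24.0 and 18.5 with teriflunomide. Lurbinectedin libraries held 140.0, 118.9 and 126.5 CPM, and combination libraries 109.7, 132.1 and 121.3. The control and teriflunomide libraries overlapped, and all 6 others lay far above them. HLA-E had a log2 fold change with lurbinectedin of 2.58 ± 0.12 (edgeR adjusted p = 5.2e-10).

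B2M, the invariant light chain that every classical class I molecule needs, was at 145.6, 146.4 and 132.7 CPM in control. Teriflunomide libraries held 200.4, 187.6 and 226.9 CPM, lurbinectedin libraries 353.7, 340.1 and 321.0, and combination libraries 310.9, 393.8 and 243.9. The groups form 3 steps without overlap, control, then teriflunomide, then both lurbinectedin groups, and the combination had the widest spread (SD 75.1 CPM). The log2 fold change with lurbinectedin was 1.26 ± 0.14 (edgeR adjusted p = 2.70e-06). Within the same libraries, the log2 ratio of HLA-B to B2M counts went from -5.06 ± 0.07 in control to -3.94 ± 0.06 with lurbinectedin (SD, n = 3), a difference of 1.12. The ratios of these groups did not overlap, and the exact two-sided permutation test gave p = 0.1, the smallest that 3 libraries against 3 allow (0.1818 after adjustment over 20 ratio tests).

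TAP1 was at 14.5, 14.7 and 14.3 CPM in control, and at 17.9, 19.0 and 11.1 with teriflunomide. Lurbinectedin brought it to 94.0, 93.0 and 103.3 CPM, and the combination to 79.1, 70.5 and 93.4. Teriflunomide replicate 3 was again the low library of its group. For TAP1 the log2 fold change with lurbinectedin was 2.74 ± 0.18 (edgeR adjusted p = 8.86e-09). PSMB8-AS1, which covers 12.4% of the TAP1 exon bases on the opposite strand, had 0 to 2 counts per library.

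TAP2, the partner of TAP1 in the transporter, was at 8.08, 8.32 and 8.93 CPM in control and at 9.09, 8.95 and 10.9 with teriflunomide. The lurbinectedin libraries were at 20.8, 19.4 and 22.1 CPM and the combination libraries at 18.0, 18.8 and 19.6. Its rise with lurbinectedin (log2 1.30 ± 0.12, edgeR adjusted p = 3.24e-07) was smaller than that of TAP1, with 95% intervals of 2.05-fold to 2.94-fold for TAP2 and 5.13-fold to 8.69-fold for TAP1; the difference between the genes was not tested. A gene on the same strand, ENSG00000250264, covers 32.2% of the TAP2 exon bases and had no count in any library.

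TAPBP was at 50.3, 54.4 and 53.8 CPM in control, and at 71.2, 67.0 and 67.4 with teriflunomide. Lurbinectedin gave 66.1, 72.0 and 73.8 CPM and the combination 69.1, 72.5 and 73.4. The 3 treated groups overlapped one another and all lay above control. The log2 fold change with lurbinectedin was 0.42 ± 0.09 (edgeR adjusted p = 0.000937). When libraries were scaled by their total count alone, it was 0.19 and was not called (adjusted p = 0.247); that scaling moved the median of all genes to -0.18.

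PSMB9, the interferon-induced catalytic subunit also called LMP2, was at 1.24, 0.802 and 0.986 CPM in control, and at 1.32, 1.77 and 1.47 with teriflunomide. Lurbinectedin libraries held 1.11, 1.10 and 1.02 CPM and combination libraries 0.796, 0.759 and 1.05. The lurbinectedin libraries lay within the range of the control libraries. The log2 fold change with lurbinectedin was 0.09 ± 0.24 (edgeR adjusted p = 0.747), with a 95% interval from 0.748-fold to 1.51-fold. PSMB8, or LMP7, had 5, 1 and 0 counts in the control libraries, none in the teriflunomide libraries, 2, 4 and 13 in the lurbinectedin libraries and 7, 13 and 8 in the combination libraries. Its pooled, depth-scaled count was 4.0 times control with lurbinectedin (19 against 6 counts; exact 95% interval 1.54 to 12.3, counting error only) and 5.26 times control with the combination (28 against 6; 2.14 to 15.5). The control and lurbinectedin libraries overlapped. PSMB8 shares 17.3% of its exon bases with PSMB8-AS1 and 4.0% with PSMB9, both on the opposite strand, and use of strand in counting is not stated.

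The close-set pair TAP1 and PSMB9 was also compared within libraries. The log2 ratio of TAP1 to PSMB9 counts was 3.87 ± 0.32 in control, 3.37 ± 0.42 in teriflunomide, 6.49 ± 0.15 in lurbinectedin and 6.55 ± 0.08 in combination libraries (SD, n = 3). The lurbinectedin ratios exceeded the control ratios by 2.63 and did not overlap them (exact permutation p = 0.1, adjusted 0.1818). These ratios rest on 18 to 59 PSMB9 counts per library.

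**Figure D2:**
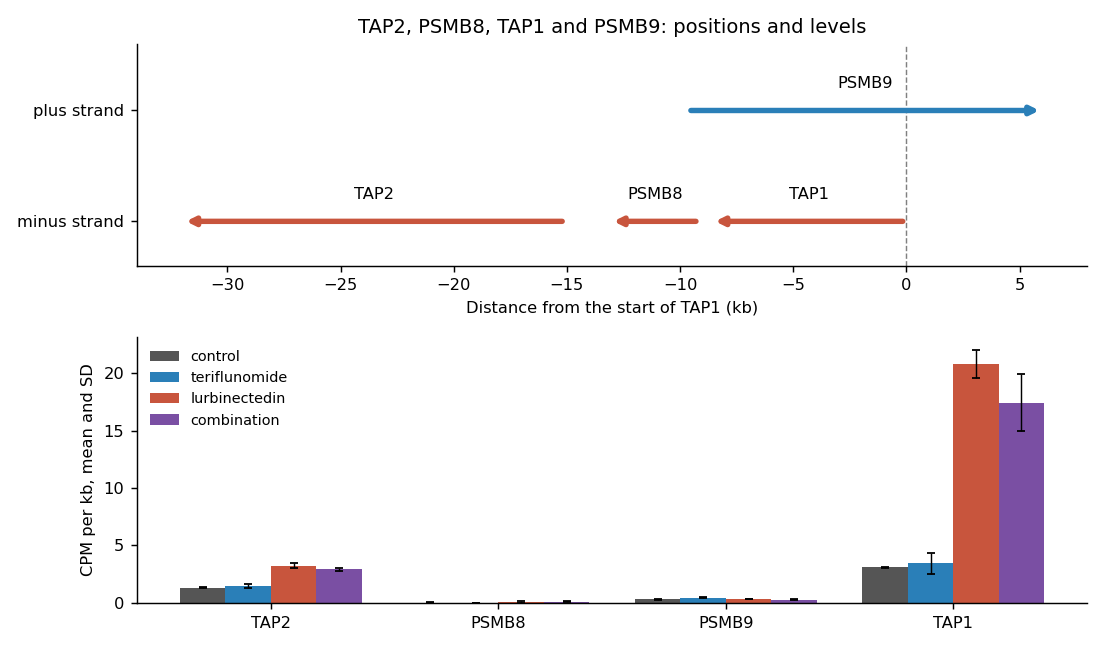
Upper panel, positions of TAP2, PSMB8, TAP1 and PSMB9 in kb from the start of TAP1, with arrows in the direction of transcription (minus strand red, plus strand blue). Lower panel, CPM per kb of exon for the 4 genes in each group, with bars as means from 0 and error bars as SD (n = 3): TAP1 reaches 20.8 CPM per kb with lurbinectedin, whereas PSMB9 and PSMB8 stay below 1 in every group.

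**Figure D3:**
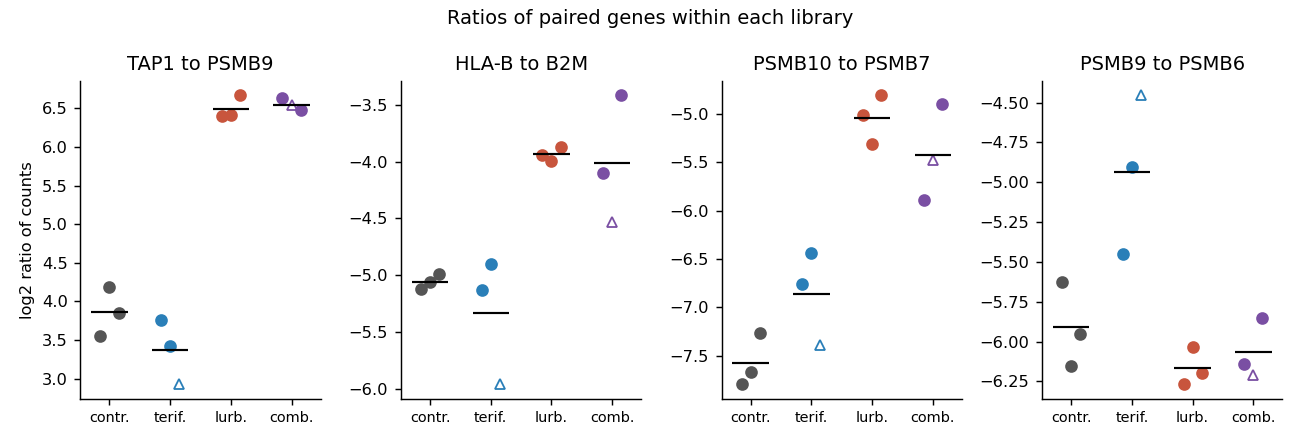
Log2 ratio of the counts of 2 genes within each library, by group, on axes that do not start at 0. Points are libraries, lines are means, and open triangles mark teriflunomide replicate 3 and combination replicate 2; TAP1 to PSMB9 rises from a mean of 3.87 in control to 6.49 with lurbinectedin.

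Per kb of annotated exon, the control order was B2M (25.95 CPM per kb), HLA-C (20.4), TAPBP (10.5), HLA-E (7.33), TAP1 (3.12), HLA-B (1.41 ± 0.04, SD), TAP2 (1.32 ± 0.07), PSMB9 (0.302) and PSMB8 (0.0193). The lengths are the exon bases in the deposited tables, such as 5455 for B2M and 2507 for HLA-C. They need not be the length of the RNA made, so the order between genes depends on the annotation. HLA-B and TAP2 were neighbours whose ranges of mean ± SD overlapped. With lurbinectedin HLA-C (76.0 ± 5.05 CPM per kb, SD) stood above B2M (62.0 ± 3.02) on this scale, and HLA-E (44.0) and TAP1 (20.8) passed TAPBP (14.0). By CPM without the lengths, B2M stayed above HLA-C. The last places were unchanged, with HLA-B at 7.34, TAP2 at 3.25, PSMB9 at 0.322 and PSMB8 at 0.0695 CPM per kb.

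Leukocytes are rich in class I RNA, and their markers moved with lurbinectedin. The summed level of 16 leukocyte markers was 0.568 to 0.804 CPM in control, 0.469 to 0.988 in teriflunomide, 5.92 to 7.98 in lurbinectedin and 5.94 to 8.22 in combination libraries. CD79A, CD14, TYROBP and FCER1G, the 4 that could be tested, all rose with lurbinectedin. They had 1 to 10 counts per control library, near the floor, and 13 to 61 per lurbinectedin library. Genes this low in control pass the expression filter largely through other groups, so a rise among those tested was partly fixed in advance. The rises on the log2 scale were 4.32 for CD79A, 4.07 for CD14, 2.13 for TYROBP and 3.01 for FCER1G. Of the same list, CD3E, CD2 and MS4A1 had no count in any library, and PTPRC (CD45) had 0 to 3. The summed level of 8 fibroblast markers was 535.0 to 564.1 CPM in control and 208.9 to 240.2 with lurbinectedin; of the 5 that could be tested 4 fell, COL1A1 and COL1A2 among them, and ACTA2 rose from 13.6 to 20.8 CPM (log2 0.62). ACTA2 also rose with teriflunomide, to 29.1 CPM. The sum of 5 epithelial markers went from 236.3 to 252.0 CPM in control to 400.1 to 433.1 with lurbinectedin, and KRT8, which makes up nearly all of it, rose by 0.80 on the log2 scale. The sum of 5 endothelial markers went from 0.418 to 0.568 CPM to at most 0.117, and PECAM1 fell, from 10 to 13 counts per control library to 0 or 1. Among the small cell lung cancer markers, YAP1 fell from 246.1 to 64.9 CPM and NEUROD1 from 4.03 to 1.62, whereas SYP rose from 16.8 to 30.9.

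Gene length also moved with the response. The 9 genes span 3.32 to 16.9 kb. Of the 4397 tested genes with a span in that range, 56.9% were called higher and 12.8% lower with lurbinectedin, against 36% and 35.7% of all tested genes, and their median log2 fold change was 0.63. Among all tested genes, 96.4% had a smaller log2 fold change than TAP1, 96.0% than HLA-E, 95.3% than HLA-B, 92.4% than HLA-C, 85.5% than TAP2, 84.9% than B2M, 62.4% than TAPBP and 51.4% than PSMB9. The part that length or the marker levels have in the result was not tested.

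With teriflunomide, 2 of the 8 tested genes rose, B2M and TAPBP, and none fell. Of all tested genes, 3.88% were called higher and 2.13% lower. B2M rose 1.45-fold (log2 0.53 ± 0.14 SE, edgeR adjusted p = 0.0430) and TAPBP 1.30-fold (0.38 ± 0.09, adjusted p = 0.0300), and in both genes every teriflunomide library was above every control library. PSMB9 (log2 0.59 ± 0.22, adjusted p = 0.125) and TAP2 (0.19 ± 0.12, adjusted p = 0.344) also had groups without overlap but were not called. In all, 4 of the 9 genes lay wholly above control, as did 20.1% of all tested genes. HLA-B, HLA-C, HLA-E and TAP1 overlapped, with log2 fold changes of 0.30, 0.14, -0.03 and 0.15.

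B2M and TAPBP each lost the call in 12 of 21 other settings, and 1 library changed which genes were called. Without teriflunomide replicate 3, 1555 of all tested genes were called in either direction, against 1002 with it. Among them, HLA-B (log2 0.50, edgeR adjusted p = 0.0395), HLA-C (0.37, adjusted p = 0.0143) and TAPBP (0.39, adjusted p = 0.00804) were called higher. B2M then had a log2 fold change of 0.45 and an adjusted p of 0.0511. That library held 107 HLA-B counts, against 195 and 210 in the other two.

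With both drugs, the same 7 genes as with lurbinectedin alone were called higher than control and none lower, against 34.1% and 34.4% of all tested genes; the comparisons share the control libraries. The log2 fold changes were 2.19 for HLA-B, 1.71 for HLA-C, 2.50 for HLA-E, 1.16 for B2M, 2.48 for TAP1, 1.15 for TAP2, 0.44 for TAPBP and -0.20 for PSMB9 (adjusted p = 0.466). Adding teriflunomide to lurbinectedin called none of the 8, and 0% of all tested genes were called in either direction. None of the 8 had an unadjusted p under 0.05 in edgeR, DESeq2 called none, and the smallest adjusted p in edgeR was 0.4705, for TAP1. The 95% interval of the combination over lurbinectedin ran from 0.681-fold to 1.13-fold for HLA-B, from 0.794-fold to 1.12-fold for HLA-E, from 0.656-fold to 1.07-fold for TAP1 and from 0.757-fold to 1.15-fold for B2M. Without both teriflunomide replicate 3 and combination replicate 2, B2M was called lower with the combination than with lurbinectedin (log2 -0.28, edgeR adjusted p = 0.0253). It was 1 of 3640 genes called in that fit in either direction, against 0 with all libraries.

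**Figure D4:**
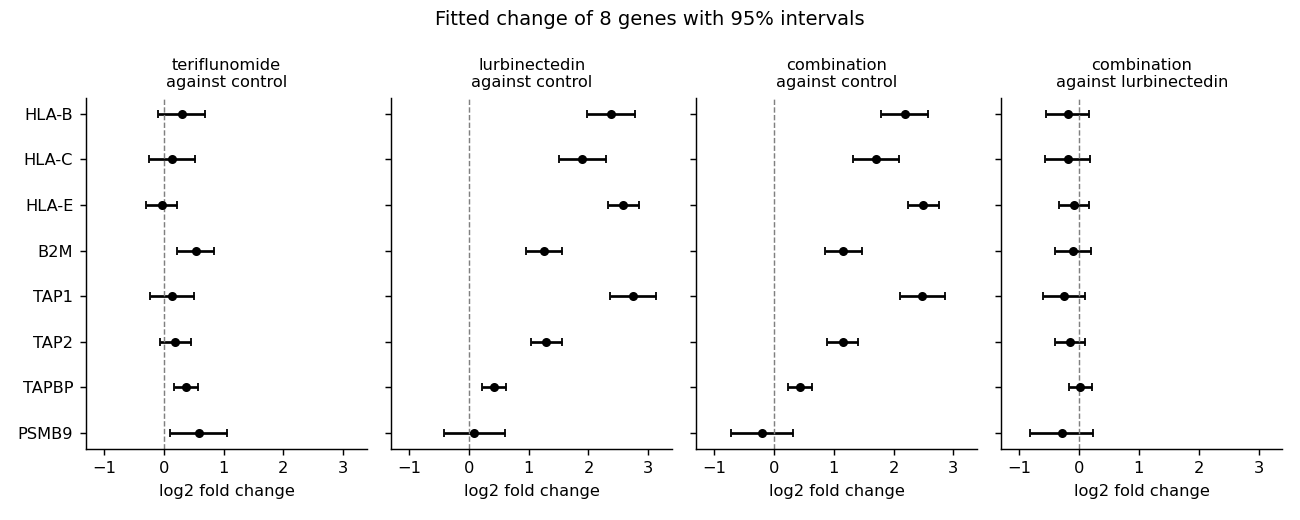
Log2 fold change of the 8 tested genes with 95% intervals in 4 comparisons, from the fit to 12 libraries. The intervals of combination against lurbinectedin all include 0, and those of lurbinectedin against control lie above 0 for every gene except PSMB9.

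Against teriflunomide alone, the combination was higher in 6 genes and lower in 1, against 35.2% and 35.8% of all tested genes. The 6 were HLA-E (log2 2.53), TAP1 (2.34), HLA-B (1.89), HLA-C (1.57), TAP2 (0.96) and B2M (0.63). PSMB9 fell by 0.79 (SE 0.23, edgeR adjusted p = 0.00676), and its 3 combination libraries lay below the 3 teriflunomide libraries. TAPBP differed by 0.06 (adjusted p = 0.542).

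The interaction, the effect of teriflunomide with lurbinectedin minus its effect without, was below 0 for all 8 genes, from -0.88 to -0.05 on the log2 scale, and none was called; 0.036% of all tested genes were called higher and 0.222% lower. B2M (-0.63), TAPBP (-0.35) and PSMB9 (-0.88) had an unadjusted p under 0.05, and DESeq2 called none. Without teriflunomide replicate 3, HLA-B (-0.68), HLA-C (-0.55) and TAP1 (-0.60) were called. They were among 616 of all tested genes called in that fit in either direction, against 43 with all libraries. HLA-E was above 0 in 4 of the other settings, by at most 0.08.

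The other lists of the pathway moved in both directions with lurbinectedin, as did all tested genes, of which 36% were called higher and 35.7% lower. The counts of each list below stand against these shares, and no list was tested as a set. Among 7 other class I heavy chains and class I-like proteins, 5 could be tested, of which 2 rose and 2 fell. MR1, which presents vitamin B metabolites to MAIT cells, rose from 1.5 to 21.7 CPM (log2 3.85). HFE, which regulates iron uptake, fell by 1.6 on the log2 scale and CD1D, which presents lipids, fell by 0.70, a call lost in 6 of 21 other settings. HLA-F had 0 to 3 counts per library and was not tested.

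Of 8 chaperones and loading factors, 1 rose and 2 fell (median log2 fold change -0.07). The ER chaperones of the loading complex were abundant and not called: CALR went from 1376 to 1313 CPM, CANX from 1265 to 1207 and PDIA3 from 619.8 to 595.1. With scaling by total count alone, which moves all genes down, these 3 were called lower, by 0.30, 0.30 and 0.29. TAPBPL, the tapasin-related editor, had a log2 fold change of 0.41 (adjusted p = 0.131). BCAP31 rose by 0.51 (not called with that scaling, adjusted p = 0.293), and UGGT1, the folding sensor that returns peptide-poor class I molecules, fell by 1.53, with PDIA4 falling by 0.62.

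Of 8 peptidases that trim or destroy class I peptides, 2 rose and 5 fell. ERAP1, which trims peptides in the ER, fell by 0.42 with lurbinectedin and rose by 0.73 with teriflunomide (edgeR adjusted p = 0.00172). Its partner ERAP2 rose by 1.45 with teriflunomide (adjusted p = 0.00405), from 1.32 to 3.63 CPM, and had a log2 fold change of 0.08 with lurbinectedin. LNPEP and TPP2 fell by 1.91 and 1.19 with lurbinectedin, whereas LAP3 rose by 1.15 and THOP1 by 0.82 (adjusted p = 0.0761 with scaling by total count alone).

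Of the 4 remaining immunoproteasome and activator genes, 2 rose and 1 fell. PSMB10, the third immunoproteasome subunit, rose from 0.522 to 1.82 CPM (log2 1.79, edgeR adjusted p = 0.000328), and the log2 ratio of PSMB10 to its constitutive counterpart PSMB7 rose by 2.54 without overlap (exact permutation p = 0.1, adjusted 0.1818). PSMB10 had 13 to 21 counts per control library and 36 to 58 per lurbinectedin library. PSMB7 fell by 0.74. The PA28 activator subunits split, with PSME2 up by 0.97 and PSME1 down by 0.40. PSMB5 (0.20) and PSMB6 (0.37, adjusted p = 0.0610) were not called, and PSME3 rose by 0.58. The log2 ratio of PSMB9 to PSMB6 was -5.91 ± 0.27 in control, -4.94 ± 0.50 with teriflunomide and -6.17 ± 0.12 with lurbinectedin (SD, n = 3). Teriflunomide and control did not overlap (exact permutation p = 0.1, adjusted 0.1818), on 24 to 59 PSMB9 counts per library.

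Of 14 transcription factors that act on class I promoters, 3 rose and 6 fell with lurbinectedin. IRF1, which binds ISRE sequences, rose from 3.54 to 42.8 CPM (log2 3.59, edgeR adjusted p = 8.23e-10). NLRC5, the class I transactivator, fell from 0.934 to 0.252 CPM (log2 -1.85 ± 0.57 SE, adjusted p = 0.00942), and IRF2 fell from 11.7 to 2.26 CPM. The NLRC5 call rests on 17 to 40 counts per control library and 3 to 10 with lurbinectedin. The NF-kB subunits went opposite ways, with RELA up by 1.19 and NFKB1 down by 1.62. RFX5 was not called (log2 -0.12).

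Of 15 genes of interferon receptors and JAK-STAT signalling, 7 rose and 5 fell with lurbinectedin. JAK2, a kinase of the interferon gamma receptor, fell from 9.73 to 0.873 CPM and JAK1 fell by 1.95 on the log2 scale. IFNGR1 rose by 0.33 (0.10 and not called with scaling by total count alone), STAT3 by 1.24 and the JAK inhibitor SOCS1 by 3.16, while PIAS1 fell by 2.07.

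Of 14 class I repressors, 13 could be tested, of which 2 rose and 7 fell with lurbinectedin. EZH2, the catalytic subunit of the Polycomb complex PRC2 that silences class I genes in small cell lung cancer, fell from 84.8 to 53.9 CPM (log2 -0.65), while its partner EED rose by 0.68. TRIM28 rose by 1.44, and DNMT3A and SETDB1 fell by 2.15 and 0.85. With teriflunomide none of the 13 was called at an adjusted p under 0.05.

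**Figure D5:**
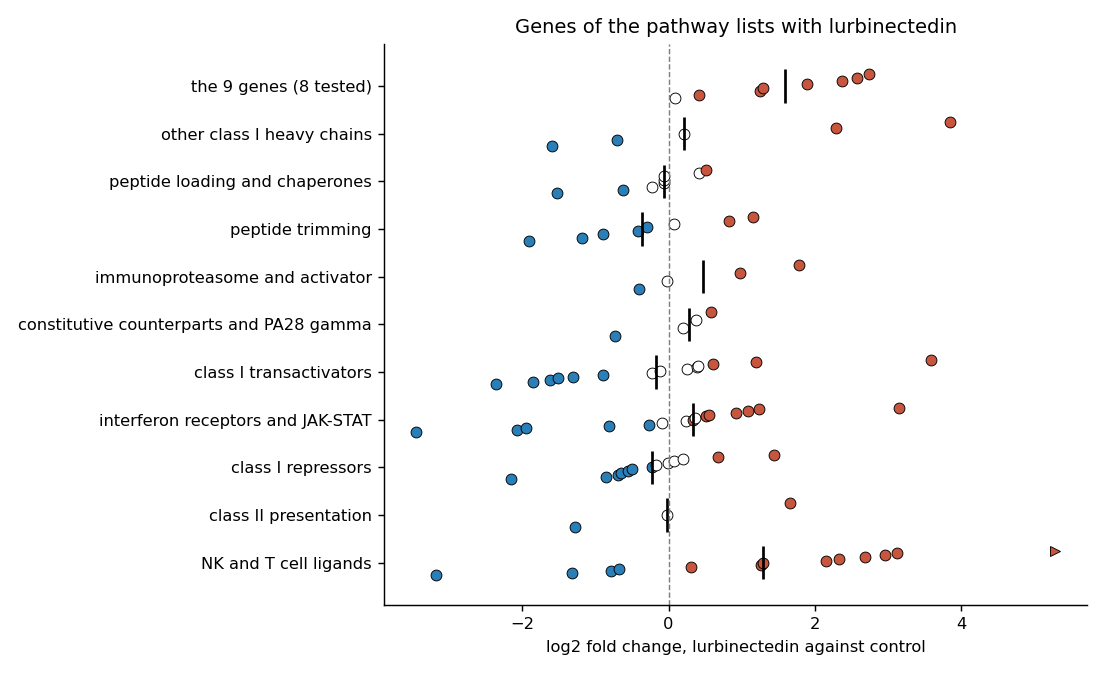
Log2 fold change with lurbinectedin against control for each tested gene of 11 lists. Red and blue points are genes called higher and lower, open points were not called, and black lines are medians; the triangle is the lower bound for RAET1L, which had no count in control. The 9 genes have 7 of 8 points in red, and the lists of transactivators, repressors and trimming peptidases hold both colours. Of all tested genes, 36% were called higher and 35.7% lower.

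Across the 12 libraries the genes split by pattern. The Pearson correlation of log2 CPM with HLA-B was 0.9972 for TAP1, 0.9929 for HLA-C, 0.8608 for B2M, 0.6955 for TAPBP and -0.3804 for PSMB9. Of 10429 other genes with a mean of at least 5 CPM, the closest to HLA-B were PLK3 (r = 0.9963), PRKD2 (0.9963) and EPHA2 (0.9961). The closest to TAP1 were RETSAT (0.9971), CLN8 (0.9966) and EPHA2 (0.9963), and the closest to B2M were ZNF805 (0.9944), EIF1B (0.9895) and RBM18 (0.9891). These are descriptions over 12 libraries that share the drug groups and the scaling.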

How the data were processed

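RNA-seq libraries of SBC3 spheroids were analysed from the raw read counts per gene that the authors deposited, 1 table per library in the featureCounts layout per the file headers. The submitters' processing notes name fastp 0.23.2, STAR 2.7.9, Subread featureCounts and hg38; the annotation release and the strand and multi-mapping settings are not given in the sources used here. Symbols matched 60463 of 60649 identifiers. The counts were tested with edgeR 4.0.16 in R 4.3.3: filterByExpr, TMM, a robust quasi-likelihood fit with 1 mean per group over 12 libraries, and 6 contrasts, each adjusted over 16683 genes. PSMB8 did not pass the filter. DESeq2 1.42.0, other scalings and filters, and leaving out each library were tried. Intervals of count ratios are exact at 95% and cover counting error only. Those intervals came from scipy 1.17.1. Ratios within libraries were compared by exact permutation in Python 3.11.15. Only the edgeR fit was tested on simulated counts, with far fewer changed genes than lurbinectedin gave here. The ratios, count intervals and promoter matches were not tested in this way. The labels do not say that replicates came from separate cultures, so p-values measure the spread between these libraries. The 9 genes, the lists and the tests were chosen with earlier results of these data known. Named besides the 9 were 24 genes chosen by role, the 2 largest rises and falls called per list with lurbinectedin at 1 CPM or more, and the 3 genes most correlated with HLA-B, B2M and TAP1; MICA, MICB, ULBP3, CD274 and class II genes other than LGMN and CIITA were named after their values were seen. Some genes that met the rule are not reported here.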

Additional observations from a re-analysis of the deposited data

How the results depend on the processing

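Under 21 other settings, 1 of them (leaving out teriflunomide replicate 3 and combination replicate 2 together) chosen after seeing the data, no fold change of a called gene changed direction. With lurbinectedin 6 to 8 of the 9 genes were called, with the combination against control 6 to 8 and against teriflunomide 7 to 8. PSMB8 made the eighth in 2, 9 and 11 of the settings that tested it. It had 0 to 5 counts per control library and none with teriflunomide. Where a filter is used, PSMB8 passes it largely through the libraries given lurbinectedin, so these calls were partly fixed in advance. TAPBP was lost against control when scaled by total count alone. With teriflunomide against control, 2 genes were called in the reported fit, 1 with scaling by total count alone, 1 with no expression filter, 0 with only the groups compared, 5 without both libraries, and 0 to 3 when each library was left out in turn. For the combination against lurbinectedin the count was 0 except for 1 without both libraries, and for the interaction 0 except for 5 without both and 0 to 3 when each was left out. The cause was not tested. Replicate numbers are shared by the groups, but same-numbered libraries did not deviate together (1 of 18 correlations above 0.1, range -0.402 to 0.144). With a replicate block, 0 genes were called with teriflunomide and 415 of all tested genes, against 1002 without the block; no other call on the 9 genes changed. Over all genes, teriflunomide calls (1002) were 265 with scaling by total count, 283 with only the groups compared, 1800 with no filter, 1890 in DESeq2, 2757 without both libraries and 216 to 1555 with each left out. Calls of the combination against lurbinectedin (0) were 612 with no filter, 94 with only the groups compared, 584 in DESeq2, 3640 without both and 0 to 2067 with each left out. Interaction calls (43) were 6 with scaling by total count, 195 with no filter, 8 with the block, 256 in DESeq2, 1839 without both and 2 to 616 with each left out. The share of calls that were higher fell from 50.2% to 39.2% with lurbinectedin when scaled by total count. No named pathway gene called with lurbinectedin or teriflunomide changed direction. Depth limits PSMB8 and PSMB9, at 0 to 13 and 18 to 59 counts per library. It also limits NLRC5 (3 to 53), PSMB10 (13 to 60) and HLA-DMB (2 to 16).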

Other observations

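Ligands that NK cells and T cells read alongside class I molecules moved in both directions with lurbinectedin: of 18 such genes 13 could be tested, and 9 rose and 4 fell (edgeR, adjusted p under 0.05; 36% and 35.7% of all tested genes did so). RAET1L, with no count in control, and CD274, with 0, 2 and 3 counts there, pass the expression filter largely through other groups. Their rise was thus partly fixed in advance, and both are among the 9. Over 21 other settings 7 to 9 ligands were called higher and 4 lower, and the rise of NCR3LG1, the ligand of NKp30, was lost in 12 settings. The rises included the stress ligands of the NKG2D receptor: ULBP2 went from 2.10 ± 0.03 to 18.5 ± 0.90 CPM (SD, n = 3), MICB from 7.81 ± 0.21 to 39.1 ± 2.71, ULBP3 from 7.40 ± 0.36 to 32.8 ± 0.86 and MICA from 7.49 ± 0.24 to 18.4 ± 1.21. RAET1L had no count in any control or teriflunomide library and 93 counts over the 3 lurbinectedin libraries, at least 39.2-fold higher by a floor of 3 counts over the control group. CD47, which restrains phagocytes, went from 31.4 ± 0.68 to 12.6 ± 1.64 CPM with lurbinectedin and rose to 52.2 ± 0.98 with teriflunomide, a call lost in 3 of 21 other settings. CD86, a ligand of CD28 and CTLA4, fell from 3.27 ± 0.16 to 0.375 ± 0.23 CPM. CD274 (PD-L1) was called higher on 5 counts in control against 27 with lurbinectedin, and the call was lost in 3 of 21 other settings.

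Class II presentation genes were almost silent. Of 15 genes 3 could be tested: LGMN, a lysosomal protease, rose from 50.8 ± 0.89 to 160.8 ± 8.41 CPM with lurbinectedin, HLA-DMB fell by 1.28 on the log2 scale (a call lost in 5 of 21 other settings), and HLA-DMA was not called. CIITA, the class II transactivator, had 1 to 9 counts per library and was not tested. HLA-DRB1 and HLA-DQB1 had no count in any library.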
